A study of Mus musculus with 6 samples.

Results

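The connexins Gja1, Gjb6, Gjb2, Gja4, Gjc1, Gjc3 and Gjd2 and the pannexins Panx1 and Panx2 were measured by RNA-seq in olfactory bulb cells with and without the transcription factor Sox9. The 9 genes were taken by symbol from the 24421 genes listed for every library, and all 9 were among the 18413 genes with a mean of at least 1 that were tested. The control group was 3 C57BL/6J mice (Sox9+/+) and the Sox9 KO group was 3 Sox9fl/fl mice, with 1 library per mouse. The mice were adult males, and the labels give the strain of every library as C57BL/6. All 6 mice, controls included, received the virus AAV-GFAP-iCre-P2a-TurboRFP, in which the GFAP promoter drives Cre recombinase and the red fluorescent protein TurboRFP. TurboRFP-positive cells were sorted 4 weeks later, so both the deletion and the sort rest on where this promoter was active in infected cells.

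Connexins are membrane proteins that assemble into hexameric hemichannels, and hemichannels of neighbouring cells dock to form gap junctions through which ions and small metabolites pass. Astrocytes of the olfactory glomerulus are joined in this way into a network, mainly by Cx43, the product of Gja1, and Cx30, the product of Gjb6. Pannexins have a similar fold but rarely dock. They act mostly as single-membrane channels, of which Panx1 is known for releasing ATP.

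The values are normalized counts, that is, reads per gene divided by 1 size factor per library, not RPM. Libraries held between 18242129 and 86906527 reads on genes, and 1 read was worth between 0.395 and 1.58 normalized counts. Sox9 itself averaged 5556 ± 881 normalized counts in controls and 58.2 ± 5.88 in KO (SD, n = 3 each), 1.05% of control. The sorted cells were labelled as astrocytes, and 11 astrocyte markers other than connexins (among them the glutamate transporters Slc1a2 and Slc1a3) summed to 655210 to 736150 normalized counts in controls but 43749 to 57304 in KO. Microglia and macrophage markers (9 genes, Csf1r and C1qb among them) moved the other way, from 154730 to 178810 in controls to 548060 to 652170 in KO. No marker of the lists used here was at 0 in every library. In bulk samples such as these, fewer cells of a type and less RNA per cell cannot be told apart.

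Of the 9 genes, 6 were lower in KO (Gja1, Gjb6, Gjb2, Gjc3, Gjc1 and Panx2), 1 was higher (Panx1) and 2 were not called (Gja4 and Gjd2). A call means an adjusted p under 0.05 and at least 1.5-fold in limma, fitted on log2(normalized count + 1) over all tested genes. Calls were common throughout, since 28.8% of all tested genes were lower, 22.2% higher and 51.0% either. All 3 KO libraries lay below all 3 controls for 6 of the 9 genes, as they did for 34.7% of all genes, and above them for 1 of the 9, as for 32.4% of all genes. The median log2 fold change was -1.60 over the 9 genes and -0.07 over all tested genes. The balance of calls among all genes depended on scaling. There were 5299 lower and 4090 higher calls as deposited, 6189 and 2937 with libraries set to the same total, 6597 and 2630 when the ribosomal transcript Rn45s was also left out of that total, and 4100 and 5380 after quantile normalization. These scalings moved the median of all genes by -0.24, -0.32 and 0.27.

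**Figure D1:**
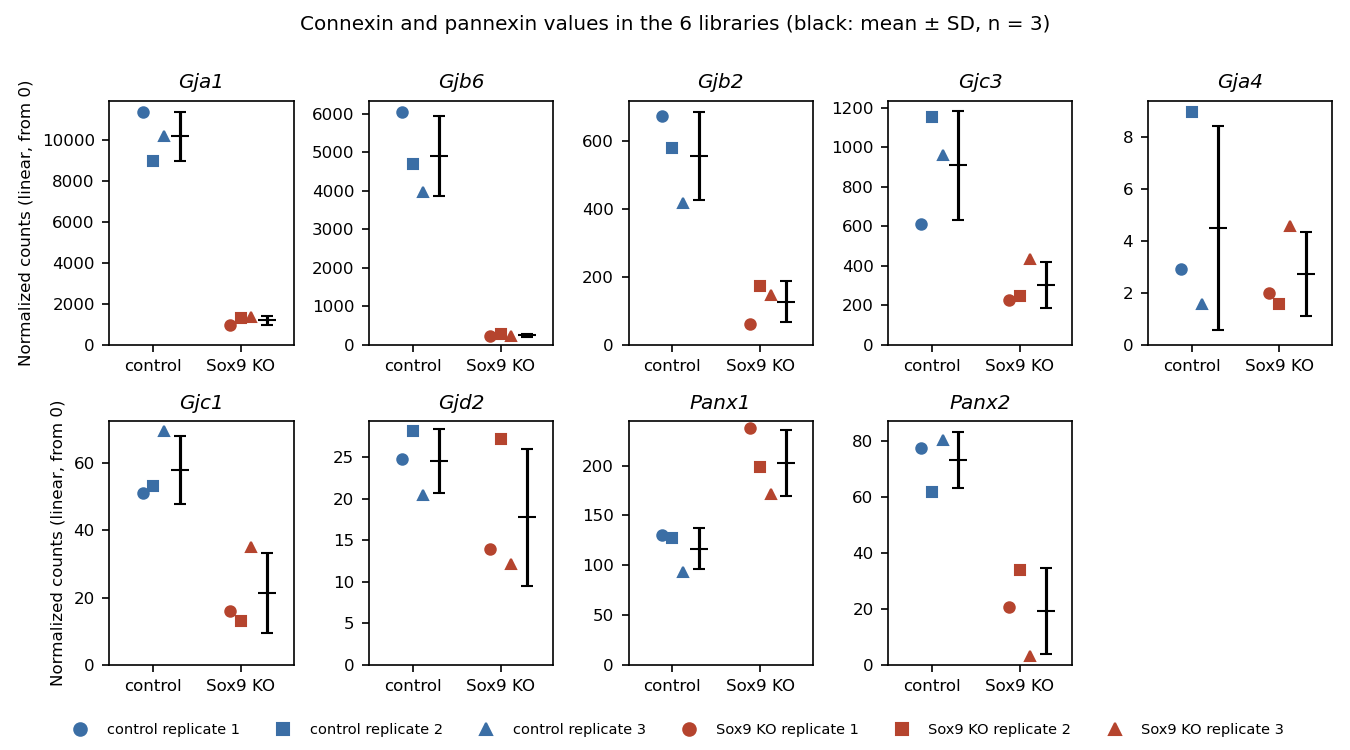
Normalized counts (linear axes from 0) of each connexin and pannexin in the 3 control libraries (blue) and the 3 Sox9 KO libraries (red), with the mean ± SD of each group in black. The groups are apart for 7 genes, with Panx1 alone higher in KO, and overlap for Gja4 and Gjd2.

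The promoters of the 3 connexins that astrocytes make are shown because Gja1 and Gjb6 carry most of the connexin signal, while Gjb6 and Gjb2 are chromosomal neighbours that changed by different amounts. Each is the 250 bases before the RefSeq start on GRCm38.p6, written 5′ to 3′ on the gene's strand. Capitals mark motif matches, and a promoter with no capitals held none of the motifs searched.
Gja1 promoter, chr10:56377050-56377299, strand +: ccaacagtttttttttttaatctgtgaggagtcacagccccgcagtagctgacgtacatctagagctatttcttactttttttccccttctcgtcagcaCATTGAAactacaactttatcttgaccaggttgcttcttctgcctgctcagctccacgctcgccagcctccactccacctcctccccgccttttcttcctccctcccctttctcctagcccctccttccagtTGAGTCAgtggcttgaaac
Gjb6 promoter, chr14:57133612-57133861, strand -: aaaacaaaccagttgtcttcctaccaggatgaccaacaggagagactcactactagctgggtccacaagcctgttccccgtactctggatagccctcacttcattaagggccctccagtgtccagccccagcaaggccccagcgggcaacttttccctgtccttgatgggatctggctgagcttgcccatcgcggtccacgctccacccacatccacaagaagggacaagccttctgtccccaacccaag
Gjb2 promoter, chr14:57104703-57104952, strand -: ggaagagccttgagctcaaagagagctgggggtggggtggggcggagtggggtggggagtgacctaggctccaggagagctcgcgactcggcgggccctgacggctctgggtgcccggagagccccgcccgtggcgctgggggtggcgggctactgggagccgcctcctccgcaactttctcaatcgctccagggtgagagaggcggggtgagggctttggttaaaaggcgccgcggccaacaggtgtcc
The search covered both strands for Sox heptamers, which open with any of AAC, TAC, ATC or TTC and close with either AAAG or, as the other ending, AATG. It also covered the AP-1 heptamer TGAGTCA (its reverse complement included) and the TATA box, searched as the hexamer TATAAA. In the 7 windows available for the 9 genes no matches overlap. Gja1 held 1 Sox heptamer, CATTGAA as printed and on the opposite strand a TTC form closing with AATG, and its first base lies 151 bases before the start. It also held 1 AP-1 heptamer, TGAGTCA, at 19 bases before the start. Among 32851 promoter windows, 21.8% held a Sox heptamer, 4.46% an AP-1 heptamer and 12.4% TATAAA. The Gjb2 promoter was 69.2% G and C with 18 CpG, against 56.8% and 5 for Gjb6, 50.0% and 6 for Gja1, and medians of 52.4% and 6 over all windows. The windows of Gja4, Gjc3, Gjd2 and Panx1 held none of these motifs.

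Gja1, which encodes Cx43, the main gap junction protein of astrocytes, fell to 11.8% of its control level. The controls had 11363, 8966 and 10162 normalized counts and the KO libraries 939, 1307 and 1340. Every KO library was thus far below every control, with little spread inside either group. The means were 10164 ± 1199 and 1196 ± 223 (SD, n = 3 each), 8.50-fold apart, and the log2 fold change was -3.10 (SE 0.14, 95% interval -3.42 to -2.78, limma adjusted p = 5.2e-08). Gja1 lies on chr10:56377330-56402513 (GRCm38, plus strand) and codes for 382 residues in 1 coding exon.

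Gjb6, which encodes Cx30, the second connexin of mature astrocytes, fell further. The controls had 6041, 4685 and 3980 normalized counts, and the KO libraries had 215, 284 and 225. The lowest control was still many times above the highest KO library. The means were 4902 ± 1048 and 241.5 ± 37.3 (SD, n = 3 each), which left 4.93% of control, a 20.3-fold difference. Its log2 fold change was -4.33 (SE 0.16, 95% interval -4.69 to -3.96, limma adjusted p = 1.8e-08). Only 1.31% of tested genes had a lower log2 fold change than Gjb6, against 6.34% for Gja1.

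Within each library, Gjb6 was 53.2%, 52.3% and 39.2% of Gja1 in the controls and 22.9%, 21.7% and 16.8% in KO. Such a ratio does not depend on how libraries were scaled to one another. The groups did not overlap, and the log2 ratio changed by -1.23 (two-sided exact permutation test, p = 0.1, the smallest that 3 libraries against 3 allow, 0.12 after adjustment over the 6 ratios tested).

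Gjb2 encodes Cx26, which is made by astrocytes and, at high level, by cells of the leptomeninges. Its controls had 674, 579 and 418 normalized counts and its KO libraries 59.6, 174 and 147. All KO libraries were below all controls, with KO replicate 1 the lowest. The means were 557 ± 129 and 127 ± 59.8 (SD, n = 3 each), 22.8% of control, with a log2 fold change of -2.24 (SE 0.36, limma adjusted p = 0.00032). Gjb2 (chr14:57098600-57104702) and Gjb6 (chr14:57123303-57133611) both lie on the minus strand, with 18.6 kb between them, and each codes in 1 exon, for 226 and 261 residues.

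The ratio of these neighbours differed between the groups without overlap. Gjb2 was 11.2%, 12.4% and 10.5% of Gjb6 in the controls and 27.7%, 61.1% and 65.5% in KO, a log2 change of 2.09 (two-sided exact permutation test, p = 0.1, adjusted 0.12). KO replicate 1 lay nearest to the controls but outside their narrow range. Relative to Gja1, Gjb2 was 5.93%, 6.46% and 4.11% in controls and 6.34%, 13.3% and 11.0% in KO. Those groups overlapped, and the log2 change of 0.85 was not called (exact permutation p = 0.2, adjusted 0.2). Of 6 markers of meningeal fibroblasts, 1 was called lower (Pdgfra, which also marks oligodendrocyte precursors). Their sum was 1644 to 2327 normalized counts in controls and 688 to 1044 in KO. Without Pdgfra the other 5 markers, which were not called, summed to 813 to 1445 in controls and 590 to 893 in KO, which overlap. Their part in the Gjb2 value was not tested.

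**Figure D2:**
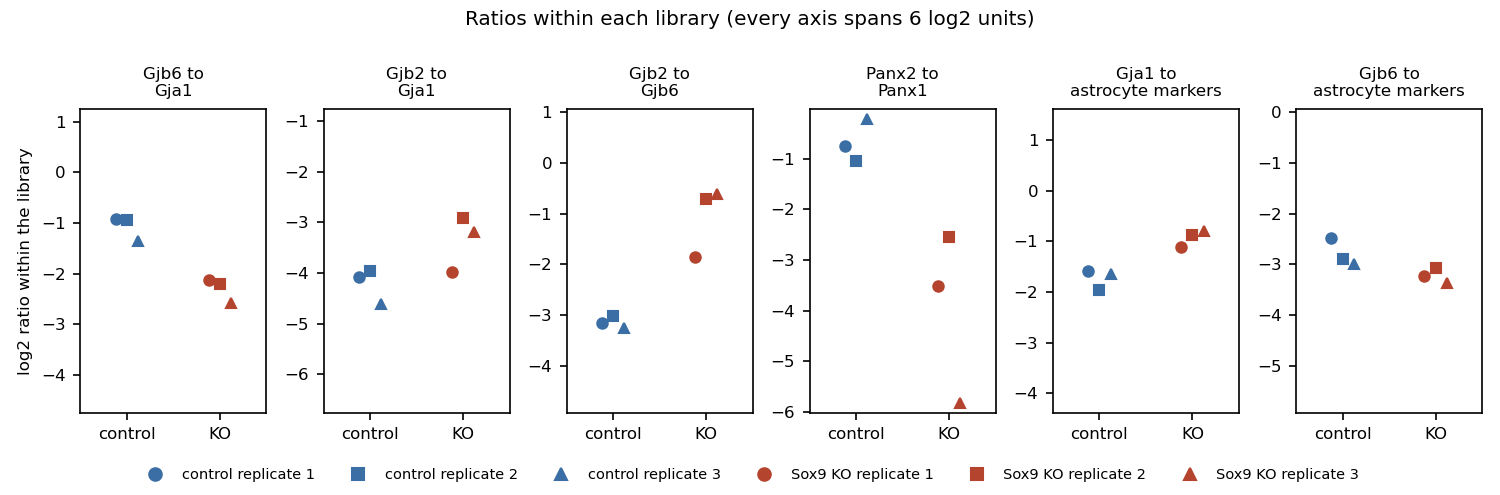
Log2 ratios within each library (vertical axes, each spanning the same log2 range) for 4 pairs of members and for Gja1 and Gjb6 against the geometric mean of 11 astrocyte markers, in control (blue) and Sox9 KO (red) libraries. Gjb2 to Gja1 is the ratio whose groups overlap.

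Set against the 11 astrocyte markers, Gja1 stood higher in KO than in control and Gjb6 lower. All 11 markers were lower in KO, with log2 fold changes from -5.25 to -2.72 (Slc1a3) and a median of -3.99. Of these markers, 10 fell more than Gja1 and 2 fell more than Gjb6. Gja1 stood at 33.5%, 25.7% and 32.1% of the markers' geometric mean in controls and at 46.4%, 54.2% and 57.4% in KO, a log2 change of 0.79 without overlap (two-sided exact permutation test, p = 0.1, adjusted 0.12). Gjb6 stood at 17.8%, 13.4% and 12.6% in controls and at 10.6%, 11.8% and 9.62% in KO, a log2 change of -0.44. The Gjb6 groups did not overlap either, but the highest KO library was close to the lowest control (exact permutation p = 0.1, adjusted 0.12). With 3 libraries a group, none of these ratio tests could pass 0.05.

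The genes whose pattern over the 6 libraries was most like that of Gja1 were Cdh11, a cadherin, Prex2, an exchange factor for Rac, and Enah, a regulator of actin. Likeness was the root mean square difference in log2(normalized count + 1) after centring on the control mean, and it was 0.049, 0.071 and 0.082 among 11925 genes with a mean of at least 100. For Gjb6 they were Etnppl, a phospholyase of astrocytes, Dusp15, a phosphatase, and Sod3, the extracellular superoxide dismutase, with differences of 0.103, 0.111 and 0.113. After this centring the measure is small where log2 fold changes are alike. These were -3.10, -3.09 and -3.14 for the genes nearest Gja1 and -4.38, -4.24 and -4.28 for those nearest Gjb6. Shared regulation was not tested. The difference between Gjb6 and Gja1 was 0.89, which put Gjb6 at rank 1493 for Gja1 and Gja1 at rank 691 for Gjb6.

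**Figure D3:**
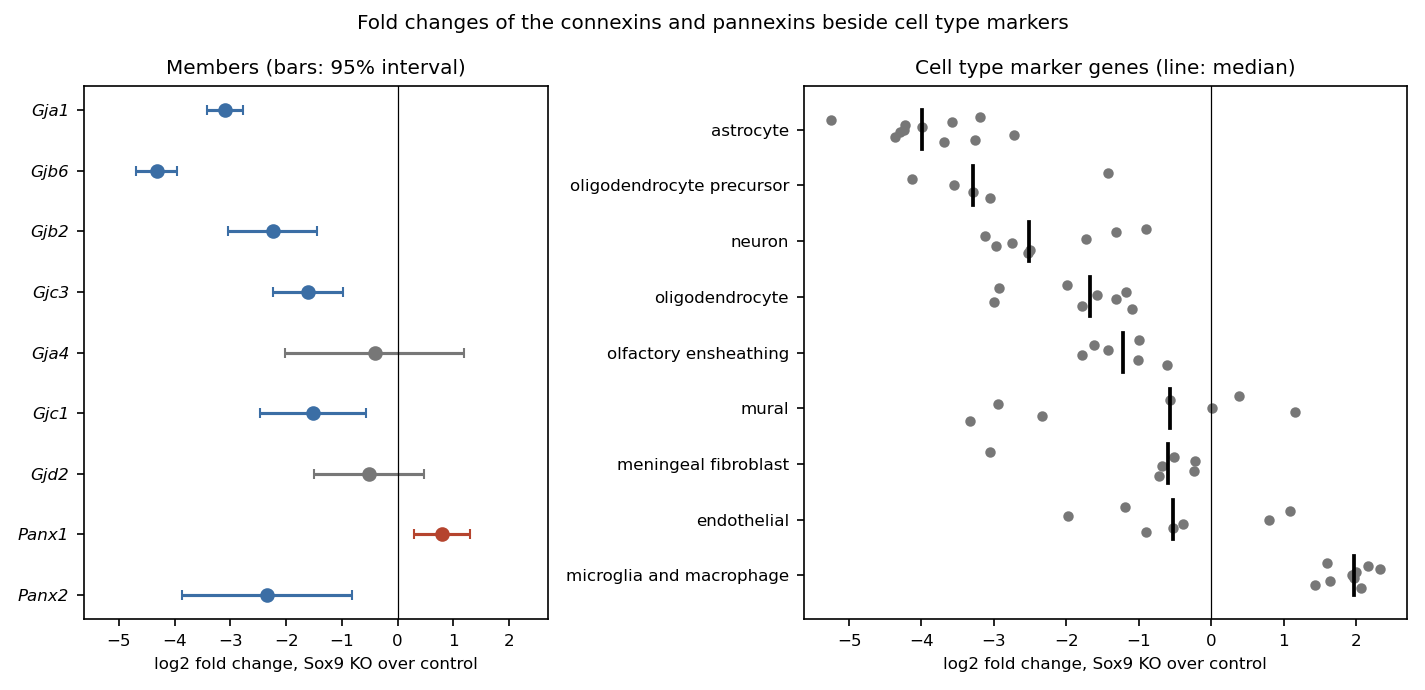
Log2 fold changes of Sox9 KO over control, on the log2(normalized count + 1) scale. On the left are the 9 members with 95% intervals (blue lower, red higher, grey not called), and on the right are single marker genes of 9 cell types as points with the list's median as a line. Gja1 and Gjb6 fall within the range of the astrocyte markers, and Panx1 is the member above 0.

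Gjc3 encodes Cx29, which is known from myelinating glia and olfactory ensheathing cells rather than from astrocytes. It fell to 33.2% of control. The controls had 611, 1155 and 961 normalized counts and the KO libraries 225, 245 and 434. The groups did not overlap, although control replicate 1 and KO replicate 3 came close. The means were 909 ± 276 and 302 ± 116 (SD, n = 3 each), with a log2 fold change of -1.60 (SE 0.28, limma adjusted p = 0.00057). Markers of the cells that make it moved too. All 8 oligodendrocyte markers were lower, with a median of -1.67 and sums of 37676 to 66396 normalized counts in controls and 15994 to 25763 in KO. All 6 olfactory ensheathing cell markers were lower, with sums of 35930 to 45789 and 10571 to 16899. The part of either list in the Gjc3 value was not tested.

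Gjb1, the Cx32 gene of oligodendrocytes and other myelinating cells, was in the list of other family genes. It went from 81.0 ± 23.5 to 13.6 ± 5.53 normalized counts (SD, n = 3 each), with -2.52 on the log2 scale (limma adjusted p = 0.00037). It was called lower, and its groups did not overlap.

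Gjc1 encodes Cx45, found in vascular smooth muscle and in some neurons. The controls had 51.1, 53.0 and 69.4 normalized counts and the KO libraries 15.9, 13.0 and 34.9. KO stayed below control in every library, and KO replicate 3 was the nearest. The means were 57.8 ± 10.0 and 21.3 ± 11.9 (SD, n = 3 each), with a log2 fold change of -1.51 (SE 0.43, limma adjusted p = 0.010). After quantile normalization it was -0.62 and no longer called (limma adjusted p = 0.21). Of 7 mural cell markers, 3 were called lower, with sums of 1767 to 2076 normalized counts in controls and 388 to 744 in KO. That sum is mostly Pdgfrb (940 ± 165 to 92.8 ± 17.2) and Rgs5 (680 ± 159 to 155 ± 113). The smooth muscle markers Acta2 (26.2 ± 15.3 to 52.9 ± 17.9), Tagln (68.0 ± 9.77 to 90.5 ± 23.1) and Myh11 (11.1 ± 3.08 to 11.4 ± 4.19), named after their values were seen, were not called (SD, n = 3 each). Of 8 neuron markers, 7 were called lower, with a median of -2.51 on the log2 scale. The part of mural cells or of neurons in the Gjc1 value was not tested.

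Gjd2 encodes Cx36, the connexin of electrical synapses between neurons, mitral cells of the olfactory bulb among them. The controls had 24.8, 28.2 and 20.5 normalized counts and the KO libraries 13.9, 27.2 and 12.2. KO replicate 2 lay among the controls. The means were 24.5 ± 3.87 and 17.8 ± 8.25 (SD, n = 3 each), and the log2 fold change of -0.52 was not called (95% interval -1.51 to 0.47, limma adjusted p = 0.34). Its sign turned to 0.30 after quantile normalization. Of 8 neuron markers, 7 were called lower, with a median of -2.51 on the log2 scale. The 8 markers summed to 14661 to 19641 normalized counts in controls and 2289 to 4086 in KO, with Snap25 the largest. Slc17a7 was the marker not called (276 ± 20.9 to 171 ± 116, -0.90, limma adjusted p = 0.067), and its groups overlapped. Slc17a6 was called lower with -1.31 (85.1 ± 22.5 to 33.8 ± 9.48). Both were named after their values were seen (SD, n = 3 each). The part of neurons in the Gjd2 value was not tested. Gjd2 overlaps A530058N18Rik on the opposite strand, and because no source used here gives the strand of counting, reads of the pair may not be told apart.

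Gja4 encodes Cx37, a connexin of arterial endothelium, and it was near the limit of detection. The controls had 2, 13 and 1 reads (2.92, 8.95 and 1.58 normalized counts) and the KO libraries had 2, 4 and 3 reads (1.99, 1.58 and 4.56 normalized counts). The groups overlapped, with control replicate 2 alone above the rest. The log2 fold change of -0.41 was not called (limma adjusted p = 0.64). It had a 95% interval from -2.02 to 1.196, so a change in either direction within that range could not be told from none. Its sign depended on 1 library, since it became 0.14 without control replicate 2, and it was 0.37 after quantile normalization. Of 7 endothelial markers, 3 were lower and 2 higher.

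Panx1, the ATP-releasing pannexin found in many cell types, microglia and macrophages included, was the one member higher in KO. The controls had 130, 127 and 93.0 normalized counts and the KO libraries 237, 198 and 172. All KO libraries were above all controls. The means were 117 ± 20.7 and 202 ± 33.0 (SD, n = 3 each), 1.73-fold higher, with a log2 fold change of 0.79 (SE 0.23, 95% interval 0.29 to 1.29, limma adjusted p = 0.011). The direction held under each scaling tried but the call did not, since the fold change was 0.55, under 1.5-fold, with libraries at the same total and 0.47 (limma adjusted p = 0.094) when Rn45s was also left out. Relative to the median of all genes it was 0.86 as deposited, 0.85 under both of those scalings and 1.25 after quantile normalization. Without KO replicate 1 the value was 0.67 and the limma adjusted p = 0.05004, just past the threshold. All 9 microglia and macrophage markers were higher (median 1.97 on the log2 scale), and their part in the Panx1 value was not tested.

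Panx2, a pannexin found mostly in the central nervous system, went down. The controls had 77.5, 61.9 and 80.4 normalized counts and the KO libraries 20.8, 34.0 and 3.04. KO stayed below control throughout, and the KO libraries spread widely, with 2 reads in KO replicate 3. The means were 73.3 ± 9.91 and 19.3 ± 15.5 (SD, n = 3 each), 26.3% of control. The log2 fold change was -2.34 (SE 0.69, 95% interval -3.87 to -0.81, limma adjusted p = 0.013). From the recovered reads it was smaller, -1.74 in edgeR and -1.85 in DESeq2, and called in each. In limma it was -1.42 without KO replicate 3 and -2.97 without KO replicate 2, and both were still called. The call was lost after quantile normalization (-1.53, limma adjusted p = 0.0996), without the filter on low values (limma adjusted p = 0.11) and without the variance trend (limma adjusted p = 0.053). Panx2 overlaps 1810021B22Rik on the opposite strand, which had 21, 40 and 16 reads in controls and 55, 179 and 25 in KO, beside 53, 90 and 51 and then 21, 86 and 2 reads of Panx2.

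The pannexins were also compared within libraries. Panx2 was 59.6%, 48.6% and 86.4% of Panx1 in controls and 8.79%, 17.1% and 1.77% in KO. The groups were well separated, with a log2 change of -3.29 in the ratio (two-sided exact permutation test, p = 0.1, adjusted 0.12). The change was -2.36 without KO replicate 3 and -4.00 without KO replicate 2.

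Levels of different genes were compared per kilobase of annotated exon. In controls Gjb6 had the highest level, 1833 ± 392 normalized counts per kilobase, followed by Gja1 with 991 ± 117 (SD, n = 3 each). Gjb2 (231 ± 53.8) and Gjc3 (209 ± 63.4) came next and did not differ beyond their spread. Panx2 (20.4 ± 2.75) and Panx1 (19.4 ± 3.42) were likewise side by side, above Gjc1 (11.6 ± 2.003), Gjd2 (8.52 ± 1.35) and Gja4 (2.66 ± 2.33).

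In KO the order of the means was Gja1 with 117 ± 21.7 and Gjb6 with 90.3 ± 14.0 normalized counts per kilobase, then Gjc3 (69.2 ± 26.5) and Gjb2 (52.7 ± 24.8), within one another's spread. Panx1 followed at 33.6 ± 5.47. Not every library kept this order. In KO replicate 1 Panx1 (39.3) was above Gjb2 (24.8), and in KO replicate 3 Gjc3 (99.7) was above Gjb6 (84.1). Gjd2 (6.17 ± 2.87), Panx2 (5.36 ± 4.31) and Gjc1 (4.25 ± 2.38) were within one another's spread, and Gja4 (1.61 ± 0.96) had the lowest mean and was below Gjd2 in every library. The order of Gja1 and Gjb6 in controls depends on the length used, because the exons of Gja1 cover 10.257 kb while its longest transcript is 3.889 kb. By the longest transcript Gja1 was at 2613 ± 308 and Gjb6 at 2329 ± 498 per kilobase in controls.

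Summed over the 7 connexins, the level per kilobase of exon was 3287 ± 470 in controls and 341 ± 72.3 in KO (SD, n = 3 each). Gjb6 made up 55.4% ± 3.96 of this sum in controls and 27.1% ± 4.96 in KO. The share of Gja1 was 30.3% ± 3.44 and then 34.3% ± 1.04. Gjc3 went from 6.57% ± 2.53 to 20.2% ± 5.31 and Gjb2 from 6.99% ± 0.87 to 14.9% ± 4.88. Thus the smaller sum in KO held a smaller share of Cx30 transcript and larger shares of Cx29 and Cx26 transcript. These shares had no overlap between groups. The rise was not particular to Cx29 and Cx26. The small shares of Gjd2 (0.26% to 1.83%), Gjc1 (0.36% to 1.24%) and Gja4 (0.08% to 0.47%) were also larger without overlap. By the longest transcript the share of Gja1 was 48.3% and 54.6% and that of Gjb6 42.6% and 20.7%.

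**Figure D4:**
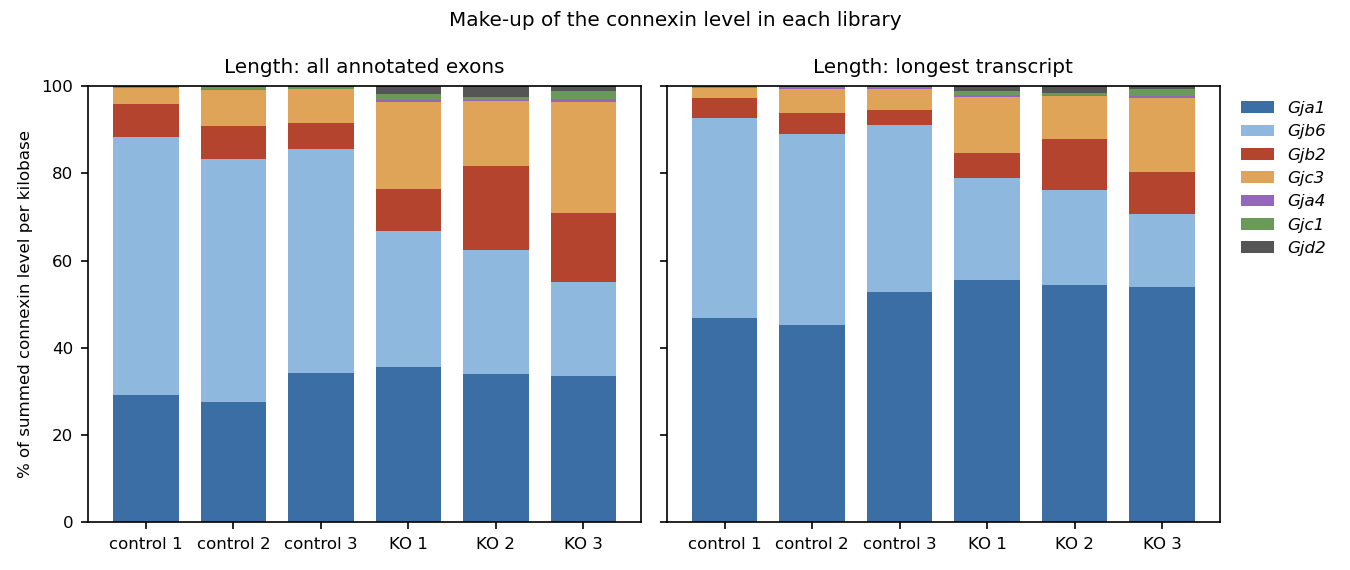
Share of each of the 7 connexins (vertical axis, % of the summed level per kilobase) in each control and Sox9 KO library, with length taken as all annotated exons (left) or the longest transcript (right). The share of Gjb6 is smaller in every KO library than in every control, and those of Gjc3, Gjb2, Gjd2, Gjc1 and Gja4 are larger.

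Among the 13 other connexin genes and Panx3, 10 passed the filter on low values, 3 were called lower and none higher (median -1.04 on the log2 scale). These 3 of 10 are 30% of the tested genes of the list, close to the 28.8% of all tested genes. Gjb1 and Gjb5, an epithelial connexin, were among the genes called lower. Gjb5 had 5, 35 and 11 reads in controls and none in KO, which was at least 25.8-fold lower when 3 reads over the KO group are taken as the limit of a count of 0. Gjb5 was already the lowest tested gene of this list, so placing it at that bound could not move the median of -1.04. Panx3 had no read in controls and 1, 5 and 3 reads in KO and was not called (limma adjusted p = 0.077). It was called higher in 4 alternatives to that fit (a smaller pseudocount, no filter, quantile normalization, no variance trend), and by neither edgeR nor DESeq2, and at an unadjusted p under 0.05 in limma 0 of these genes were higher. Gjd3 was listed at 0 in all 6 libraries, and Gje1 had 2 reads in all.

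Of 15 genes whose products bind, traffic or regulate gap junctions, 7 were lower (46.7%, against 28.8% of all tested genes) and 1 was higher (6.67%, against 22.2%), with a median of -0.55. The largest decreases were in Cttn, the actin-binding protein cortactin (982 ± 120 to 58.8 ± 2.29 normalized counts, -4.03 on the log2 scale), Cdh2, N-cadherin (8263 ± 921 to 677 ± 102, -3.61), Dbn1, the Cx43-binding protein drebrin (290 ± 23.0 to 29.7 ± 13.1, -3.32), and Nedd4, a ubiquitin ligase for Cx43 (14187 ± 540 to 1735 ± 369, -3.05). Caveolin Cav1 (-1.17) and the kinase Src (-0.89) were called lower as well. Erp29, a chaperone of Cx43 assembly, rose from 1658 ± 18.2 to 3284 ± 351, a log2 fold change of 0.98 (limma adjusted p = 1.1e-05). Tjp1, the ZO-1 scaffold at Cx43 plaques, had -0.40 (limma adjusted p = 0.0025), which is under 1.5-fold. With libraries at the same total, 11 of the 15 were called lower, with Tjp1, Dlg1, Cnst and Ubqln4 added. Under that scaling 6189 of all 18441 tested genes were lower, and the median of all genes moved by -0.24.

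Other families that form large-pore channels were looked at for comparison. Of 8 calcium homeostasis modulator (CALHM) and LRRC8 genes that passed the filter, 2 were higher (25.0%, against 22.2% of all tested genes) and 1 was lower (12.5%, against 28.8%), with a median of 0.18. Fam26f, also named Calhm6 and known from macrophages, rose from 211 ± 33.8 to 1456 ± 260 normalized counts (SD, n = 3 each), with 2.78 on the log2 scale (limma adjusted p = 2.7e-07). Calhm2, reported in microglia and astrocytes as an ATP-releasing channel, rose from 614 ± 55.4 to 1685 ± 198, a log2 fold change of 1.45 (limma adjusted p = 2.9e-06). Lrrc8a, the obligatory subunit of the volume-regulated anion channel, fell from 4518 ± 96.3 to 2508 ± 297, a log2 fold change of -0.86 (limma adjusted p = 3.8e-05). Its partner subunits Lrrc8b, Lrrc8c, Lrrc8d and Lrrc8e were not called. Among them Lrrc8d was above every control in every KO library, with 0.44 on the log2 scale (limma adjusted p = 0.0029), which is under 1.5-fold.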

How the data were processed

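TurboRFP-positive olfactory bulb cells of 3 control and 3 Sox9 KO mice were sequenced from total RNA with the NuGEN Trio kit. Per the labels and methods, the authors used STAR 2.5.0a for mapping to mm10, GenomicAlignments for counting over genes and DESeq2 1.20.0 for normalization. No source used here gives the gene annotation or strandedness. The deposited signal values are named RPM, but each is a number of reads over the library's size factor, since 100% were whole multiples of 1 step within 0.01 read.

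Genes with a mean of at least 1 were compared on log2(value + 1) in limma 3.58.1 (R 4.3.3) with a variance trend, two-sided, with Benjamini-Hochberg adjustment over all tested genes and no block. A pseudocount understates the change of low genes. The recovered whole reads were also tested with edgeR 4.0.16, which called 9340 genes, and DESeq2 1.42.0, which called 9094. Counts were also simulated with 200 of 16494 genes changed by 1 on the log2 scale, as many raised as lowered, with 1 spread setting for all genes. At an adjusted p under 0.05 alone, limma recovered 163, edgeR 167 and DESeq2 159, each in the right direction. In the data 51.0% of tested genes were called and the balance of calls depended on scaling. This simulation therefore cannot show how reliable those calls are. The genes described and every list were chosen with earlier results of these data known. Named by rule were Sox9, the 9 members, genes of 3 related lists, at most 3 markers per list by mean level, and the 3 genes nearest in pattern to Gja1 and to Gjb6. The smooth muscle markers Acta2, Tagln and Myh11 and the neuron markers Slc17a7 and Slc17a6 were named outside this rule, after their values were seen. Coordinates, exon lengths and overlaps are from GENCODE M21 (GRCm38), and promoters from a RefSeq table. Alternatives to pseudocount, filter, scaling, variance model, block, tool and length were run, as were fits without each library. The values of some single genes of the lists are not reported here.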

Additional observations from a re-analysis of the deposited data

How the results depend on the processing

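Gja1, Gjb6, Gjb2 and Gjc3 were called lower in each of the 17 alternatives run for them, with log2 fold changes of -3.43 to -2.93, -4.65 to -4.17, -2.56 to -1.74 and -1.93 to -1.35. The number of members lower stayed at 6 except without a filter and without a variance trend (5 each) and after quantile normalization (4). After quantile normalization Gjc1 (-0.62) and Panx2 (-1.53) lost their calls, and Gja4 (0.37) and Gjd2 (0.30) changed sign. Panx2 (-2.34) also lost its call with no filter (limma adjusted p = 0.11) and with no variance trend (limma adjusted p = 0.053). Panx1 lost its call with libraries at the same total (0.55) and also without Rn45s (0.47), which left 0 members higher in each. Without 1 library, Panx1 ranged from 0.64 to 0.90 and Gja4 from -0.84 to 0.14, and 0 to 1 members were higher. Other connexins and Panx3 had 1 gene higher with a pseudocount of 0.1, no filter, quantile normalization or no variance trend. Partner proteins had 11 lower under both total scalings, where 6189 of 18441 and 6597 of 18686 tested genes were lower. They had 2 higher with edgeR (1 to 2 without 1 library, 2 without control replicate 2, Csnk1d added). Large-pore channels had 1 to 2 lower without 1 library (2 without KO replicate 2, Lrrc8e added). The cause was not tested for any of these. By the longest transcript the level per kilobase of Gjc1 in controls was 16.9, and in KO that of Gja1 was 307 and of Gjb6 115. Ratio tests of 3 libraries against 3 cannot go under 0.1, so they say nothing about stability.

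Same-numbered control and KO libraries did not deviate together (correlations of -0.05, -0.01 and -0.01), so the numbers were not taken as pairs. With a replicate block Gja1 was -3.10 and all 9 calls were the same, with 5227 genes lower and 4048 higher among all genes.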
